A study of Mus musculus with 6 samples.

Results

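Inhibitors of cyclin-dependent kinases (CDKs) were measured in 6 lines of mouse embryo fibroblasts, which are primary cells grown from embryos. The set was defined by name as the Cip family genes Cdkn1a, Cdkn1b and Cdkn1c and the Ink4 family genes Cdkn2a, Cdkn2b, Cdkn2c and Cdkn2d. Of 22626 probe sets on the Affymetrix arrays, 9 named 1 of these genes and no other gene, and all 7 genes were represented. Cdkn1a and Cdkn1b had 2 probe sets each. Of 12393 genes with such a probe set on the array, 8382 passed a filter on low values (log2 4 or more on 3 or more arrays), among them the 7 inhibitors.

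The 3 chromosomally unstable lines were 2 BubR1H/H lines, homozygous for a low-activity (hypomorphic) allele of BubR1, a kinase of the spindle checkpoint, and 1 CDC20AAA/AAA line, homozygous for a CDC20 allele that the labels also call hypomorphic. The 3 stable lines were 2 BubR1+/+ lines and 1 CDC20+/+ line, wild type at both genes. No line carried a second engineered allele in the labels, no agent was given to 1 group alone, and all lines were grown for 2 passages. Sample titles carry the numbers 9515, 9938 and 10074, each shared by 1 unstable and 1 stable line, called a pair here; the BubR1 lines form pairs 9515 and 9938, and pair 10074 holds the CDC20 lines. Each genotype was thus represented by 1 or 2 lines, and since separate embryos are not stated in the labels, p-values cover only the variation among these 6 lines, which may in part be technical.

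CDK inhibitors are small proteins that hold back the cell cycle. Ink4 proteins bind CDK4 and CDK6 and keep them from pairing with D-type cyclins, which leaves the retinoblastoma protein active and E2F target genes off. Cip proteins bind whole cyclin-CDK complexes, above all those of CDK2. In fibroblasts in culture p16Ink4a, p19Arf, p15Ink4b and p21Cip1 are the products most often linked to senescence, a lasting arrest, while p18Ink4c and p19Ink4d are better known from the cycle of dividing and differentiating cells. Cdkn2a encodes both p16Ink4a, an inhibitor of CDK4 and CDK6, and p19Arf, which stabilizes p53 by restraining MDM2, from different first exons and shared later exons.

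The arrays had medians of 6.156 to 6.197 on the log2 scale, so they were on a common scale. Of 11 fibroblast markers with a probe set all passed the filter, at mean log2 levels of 11.327 to 11.813 per line, whereas 5 of 8 epithelial markers did not. As a check of the labels, Bub1b, which encodes BubR1, differed by -1.66 and -2.08 in log2 units within the BubR1 pairs and by -0.62 within the CDC20 pair. Cdc20 differed by -0.10 and -0.81 within the BubR1 pairs and by -0.81 within the CDC20 pair, so its transcript did not set the CDC20 line apart and does not check that label. By Xist, the RNA that silences an X chromosome in female cells, and by the Y-linked Eif2s3y, both lines of pair 9938 had a female pattern and the other lines a male one; sex and the number of the pair cannot be told apart. Macrophage markers also differed between lines. Their summed level was 12.225 to 14.485 in stable and 12.085 to 14.494 in unstable lines on the log2 scale. Of 13 tested markers 9, 5 and 13 were lower in the unstable line of pairs 9515, 9938 and 10074. The integrin gene Itgam stayed at or below 2.926 on all arrays, under the filter. The part of macrophage RNA or of sex in the inhibitor values was not tested.

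The 250 bases upstream of 6 start sites are printed here as background on the genes. Matches in them were not tied to expression values. Cdkn2a is read from a pair of promoters that the annotation of its 1 probe set does not tell apart. Cdkn1a is the classical p53 target of the set. Cdkn2c and Cdkn2d had lower group means in unstable lines, though neither difference passed the test described below. Sequences are from RefSeq (GRCm38.p6), 5′ to 3′ on the strand of the gene. Of the 7 genes 6 had a window in that table, Cdkn1c being the other, with 9 windows in all. Capitals mark the p53 decamer in Cdkn1a and an E2F word in the others, both searched on either strand. The E2F words searched were TTCCCGC and its variants, namely TTCGCGC as well as the related TTGCCGC and, as the last of them, TTGGCGC.
Cdkn1a outer start, chr17:29090729-29090978, plus strand: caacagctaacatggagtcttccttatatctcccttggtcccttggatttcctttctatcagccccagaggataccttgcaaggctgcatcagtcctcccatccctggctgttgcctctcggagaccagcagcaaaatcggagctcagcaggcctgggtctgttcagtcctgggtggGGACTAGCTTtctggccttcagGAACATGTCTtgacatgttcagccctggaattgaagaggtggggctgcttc
Cdkn2a outer start, chr4:89294620-89294869, minus strand: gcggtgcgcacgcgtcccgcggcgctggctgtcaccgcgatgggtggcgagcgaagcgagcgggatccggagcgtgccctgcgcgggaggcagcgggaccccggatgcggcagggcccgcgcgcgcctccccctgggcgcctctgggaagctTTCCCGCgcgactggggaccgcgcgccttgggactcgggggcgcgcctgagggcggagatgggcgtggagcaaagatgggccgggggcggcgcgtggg
Cdkn2a inner start, chr4:89282193-89282442, minus strand: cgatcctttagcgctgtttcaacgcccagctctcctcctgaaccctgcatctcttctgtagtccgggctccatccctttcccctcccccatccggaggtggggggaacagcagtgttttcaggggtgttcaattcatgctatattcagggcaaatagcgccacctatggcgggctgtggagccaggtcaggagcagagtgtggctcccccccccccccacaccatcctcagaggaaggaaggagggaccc
Cdkn2b, chr4:89311033-89311282, minus strand: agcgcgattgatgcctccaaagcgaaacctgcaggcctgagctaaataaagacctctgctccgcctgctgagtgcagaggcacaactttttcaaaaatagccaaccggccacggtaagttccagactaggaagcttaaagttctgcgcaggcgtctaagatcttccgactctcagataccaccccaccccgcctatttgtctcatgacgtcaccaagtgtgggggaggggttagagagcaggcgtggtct
Cdkn2c outer start, chr4:109666757-109667006, minus strand: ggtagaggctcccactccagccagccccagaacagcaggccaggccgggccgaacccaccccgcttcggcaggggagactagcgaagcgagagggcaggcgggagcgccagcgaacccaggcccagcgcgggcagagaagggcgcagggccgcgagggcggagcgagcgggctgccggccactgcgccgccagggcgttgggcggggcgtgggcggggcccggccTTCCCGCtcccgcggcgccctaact
Cdkn2d, chr9:21291210-21291459, minus strand: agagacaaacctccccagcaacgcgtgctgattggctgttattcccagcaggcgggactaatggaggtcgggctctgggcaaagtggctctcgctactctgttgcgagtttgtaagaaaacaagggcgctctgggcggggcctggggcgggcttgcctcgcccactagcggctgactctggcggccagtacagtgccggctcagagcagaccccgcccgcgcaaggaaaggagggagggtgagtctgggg
The outer Cdkn1a window held 2 matches to the p53 decamer, beginning 73 and 51 bases before the start. The Cdkn2d window held 1, not capitalized here, and the other 7 windows none. A decamer was present in 7.13% of 32851 windows of the same length. An E2F word lay 98 bases before the outer Cdkn2a start and 25 bases before the outer Cdkn2c start, and the other 7 windows held none, beside 7.89% of all windows with one. These matches describe the letters in these windows and are not evidence of binding.

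The comparison of unstable with stable lines asked whether inhibitors linked to senescence were higher where chromosomes were unstable. Cdkn1a, Cdkn2a and Cdkn2b, the 3 senescence-linked members, were each higher in the unstable line of all 3 pairs, and so was Cdkn1c. Cdkn2d was lower in all 3 pairs, Cdkn2c in 2 pairs and Cdkn1b in 1. The sizes were small, with group differences from -0.51 for Cdkn2d to 0.65 for Cdkn1c on the log2 scale. None of the 7 passed the limma test over all genes: 0 of 7 had an adjusted p under 0.05, and 0 had an unadjusted p under 0.05. Over all 8382 genes 0 were past the adjusted threshold in either direction (0% higher and 0% lower), and 359 (4.28%) had an unadjusted p under 0.05. Higher in all 3 pairs were 4 of 7 inhibitors beside 16.9% of all genes, and lower in all 3 pairs was 1 of 7 beside 19.3%. Over the group means 5 of 7 were higher, beside 47.9% of all genes, and 0 of 7 had all unstable lines above all stable ones, beside 3.54%. The median difference of the 7 was 0.15 beside -0.01 for all genes. Whole cultures were measured, so fewer cells that express a gene and less RNA per cell cannot be told apart.

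**Figure D1:**
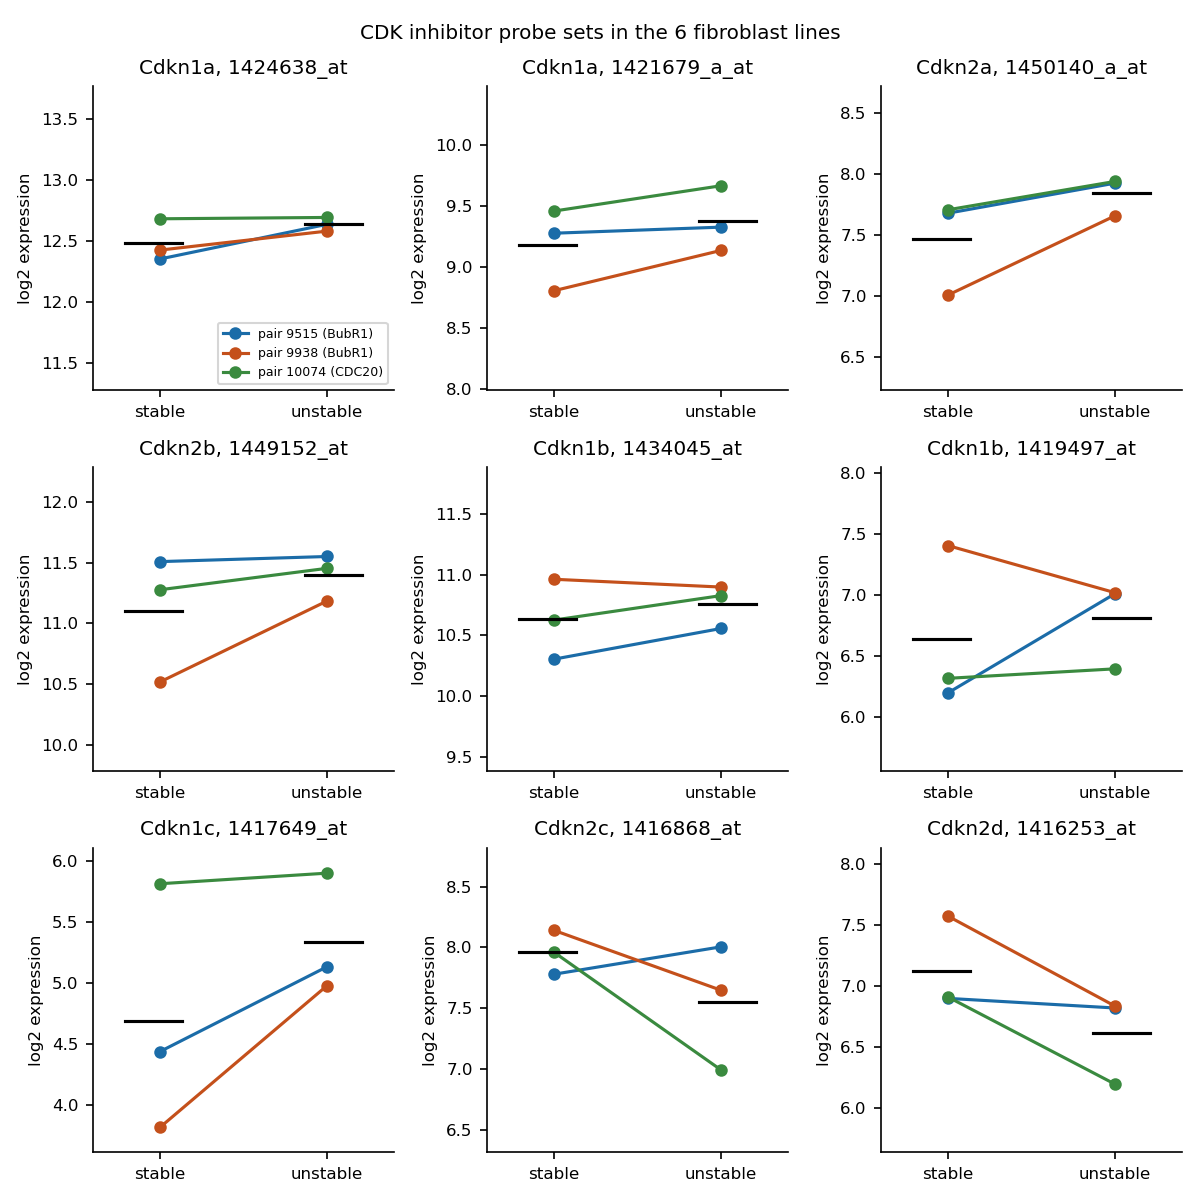
Log2 expression of the 9 inhibitor probe sets in stable and unstable lines, with 1 panel per probe set, 1 point per line, lines joining the members of a pair and black bars at group means; all panels span 2.5 log2 units. Both probe sets of Cdkn1a and those of Cdkn2a, Cdkn2b and Cdkn1c slope upward in every pair, and Cdkn2d slopes downward in every pair.

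Cdkn2a, the gene of p16Ink4a and p19Arf, measured 7.68, 7.01 and 7.71 on the log2 scale in the stable lines (pairs 9515, 9938 and 10074 in that order here and below), and 7.93, 7.66 and 7.94 in their unstable partners. The stable line of pair 9938 was the lowest, and the unstable line of that pair lay just under the other 2 stable lines, so the groups overlapped by that line. The stable lines averaged 7.46 ± 0.40 (SD, n = 3) and the unstable lines 7.84 ± 0.16 (SD, n = 3), a 1.30-fold difference in the means. The log2 difference was 0.38 (SE 0.21, 95% interval -0.15 to 0.90; adjusted p = 0.999 by limma). The annotation names the probe set by its gene alone, so the difference was not assigned to p16Ink4a or p19Arf.

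Cdkn2b, the neighbouring gene of p15Ink4b, which is known as a target of TGF-beta signalling, measured 11.51, 10.52 and 11.28 in the stable and 11.55, 11.19 and 11.45 in the unstable lines. Again the stable line of pair 9938 stood lowest, and the other stable lines lay within the range of the unstable ones. The pair differences were 0.04, 0.67 and 0.18, so that most of the group difference of 0.29 (SE 0.27, 95% interval -0.36 to 0.95; adjusted p = 0.999 by limma) came from pair 9938. Without the stable line of that pair the difference was 0.0035.

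Cdkn1a, which encodes p21Cip1, was bright on all arrays by its stronger probe set, at 12.35, 12.43 and 12.68 in the stable and 12.64, 12.58 and 12.70 in the unstable lines. The stable line of pair 10074 lay above both unstable BubR1 lines, so the groups overlapped. The pair differences were 0.29, 0.16 and 0.01, and the group difference was 0.15 (SE 0.12, 95% interval -0.13 to 0.43; adjusted p = 0.999 by limma). The weaker probe set gave 9.28, 8.80 and 9.46 in stable and 9.33, 9.14 and 9.67 in unstable lines. Its pair differences were 0.05, 0.33 and 0.21, so both probe sets were higher in each unstable line but ordered the pairs differently. The upper bound of the interval of the stronger probe set, 0.43, leaves room for changes up to that size.

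Cdkn1c encodes p57Kip2, the product of an imprinted gene active in embryonic tissues that leave the cycle. It was the dimmest member and measured 4.44, 3.81 and 5.81 in the stable and 5.13, 4.98 and 5.90 in the unstable lines. The lines of pair 10074 were the highest of their groups, and the stable line of pair 9938 lay below the log2 floor of 4, so sizes are approximate. The pair differences were 0.70, 1.16 and 0.09. Of the 7 inhibitors it had the highest group difference, 0.65 (SE 0.54), which 101 of 8382 genes reached or passed, but its interval was also the widest (-0.66 to 1.96; adjusted p = 0.999 by limma).

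Cdkn1b, the gene of p27Kip1, which accumulates in quiescent cells mainly through slower protein breakdown, did not keep 1 direction. Its stronger probe set measured 10.31, 10.96 and 10.63 in stable and 10.56, 10.90 and 10.83 in unstable lines. The order of the lines followed the pair more than the group, with pair 9938 highest and pair 9515 lowest in both. The weaker probe set measured 6.20, 7.40 and 6.31 in stable and 7.01, 7.02 and 6.39 in unstable lines, so that its pairs differed by 0.82, -0.39 and 0.08. By the stronger probe set the group difference was 0.13 (SE 0.19, 95% interval -0.34 to 0.60, adjusted p = 0.999 by limma). Without the stable line of pair 9515 it was -0.03. By the weaker probe set the group difference was 0.17 (SE 0.36).

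Cdkn2d, the gene of p19Ink4d, measured 6.90, 7.58 and 6.91 in stable and 6.82, 6.84 and 6.20 in unstable lines. Every unstable line lay below every stable line, the only inhibitor of which this held; 6.41% of all genes had groups that did not overlap in that direction. In pair 9515 the gap was small, at -0.08, beside -0.74 and -0.72 in the other pairs. The means were 7.13 ± 0.39 (SD, n = 3) and 6.62 ± 0.37 (SD, n = 3), 1.43-fold lower in unstable lines. The difference of -0.51 (SE 0.26, 95% interval -1.15 to 0.13) did not pass (adjusted p = 0.999 by limma).

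Cdkn2c, the gene of p18Ink4c, measured 7.78, 8.14 and 7.96 in stable and 8.01, 7.65 and 6.99 in unstable lines. The unstable BubR1H/H line of pair 9515 lay above its stable partner and the CDC20AAA/AAA line was the lowest of all. The pair differences were 0.23, -0.49 and -0.97, and the group difference was -0.41 (SE 0.27, 95% interval -1.06 to 0.24; adjusted p = 0.999 by limma). Without the CDC20AAA/AAA line it was -0.13.

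**Figure D2:**
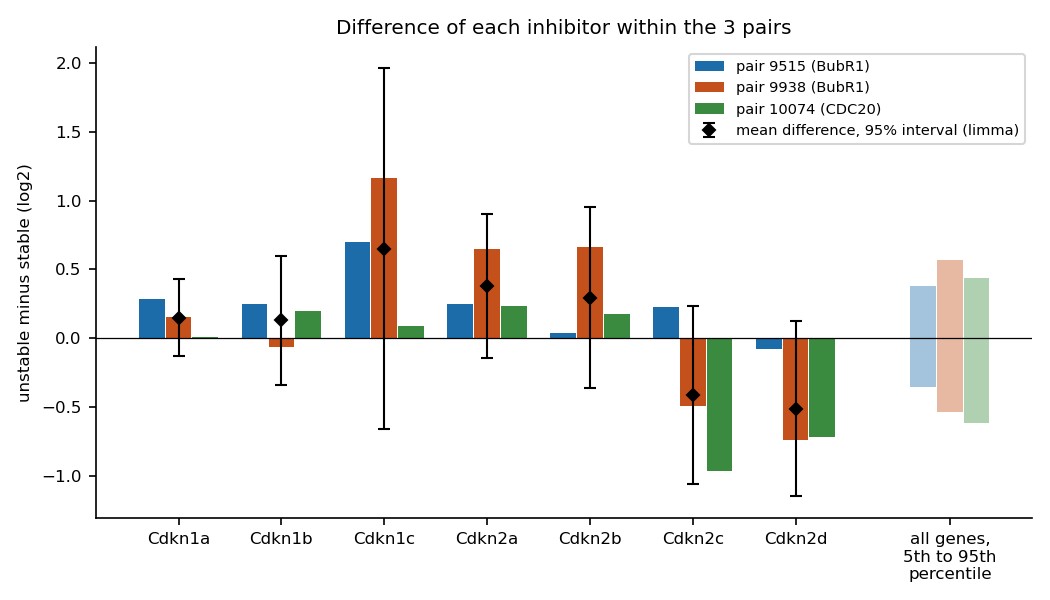
Unstable minus stable log2 difference of each inhibitor within pairs 9515, 9938 and 10074 (bars), with the mean difference and its 95% interval from limma (diamonds) and, at the right, the span from the 5th to the 95th percentile of the same pair differences over 8382 genes. All 7 intervals include 0. Outside the span of their pair lie Cdkn1c in pairs 9515 and 9938, Cdkn2a and Cdkn2b in pair 9938, Cdkn2c in pair 10074 and Cdkn2d in pairs 9938 and 10074.

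Within single pairs the inhibitors split differently. In pair 9515, 6 of the 7 were higher in the unstable line, beside 50.2% of all genes. In pair 9938, 4 of the 7 were higher, beside 49.5%, and the median of the 3 senescence-linked genes was 0.65. In the CDC20 pair 5 of the 7 were higher, beside 45.2%, and the senescence-linked median was 0.18. The largest single-pair values were 1.16 for Cdkn1c in pair 9938 and -0.97 for Cdkn2c in pair 10074, beside 5th and 95th percentiles over all genes of -0.54 and 0.57 in pair 9938 and of -0.62 and 0.44 in pair 10074.

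Lines with the same number varied together around their group means, so the test was repeated with the pair number as a replicate block. With the block 3 of 7 inhibitors had an unadjusted p under 0.05, beside 12.2% of all genes, namely Cdkn1c, Cdkn2a and Cdkn2d. Their intervals then excluded 0, at 0.10 to 1.20 for Cdkn1c, 0.07 to 0.68 for Cdkn2a and -0.92 to -0.10 for Cdkn2d. No inhibitor passed after adjustment over all genes (adjusted p = 0.349 for Cdkn1c, 0.342 for Cdkn2a and 0.339 for Cdkn2d by limma with the block), and 0% of all genes did. Over all alternatives the adjusted p ranged from 0.349 to 1.00 for Cdkn1c, from 0.342 to 1.00 for Cdkn2a and from 0.234 to 1.00 for Cdkn2d.

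Whether the inhibitors responded differently to the 2 mutated genes was asked with the CDC20 difference minus the BubR1 difference. The values were -0.84 for Cdkn1c, -0.83 for Cdkn2c, -0.31 for Cdkn2d, -0.22 for Cdkn2a, -0.21 for Cdkn1a, -0.18 for Cdkn2b and 0.11 for Cdkn1b. No inhibitor passed (adjusted p = 1.00 by limma), and neither did any gene (0%), while 133 genes had an unadjusted p under 0.05. The intervals without the block were wide, -2.11 to 0.43 for Cdkn1c and -1.88 to 0.21 for Cdkn2c. The CDC20 genotypes had 1 line each and took their spread from the BubR1 lines. With the replicate block the SE was 0.28 in place of 0.44 for Cdkn1c and 0.35 in place of 0.36 for Cdkn2c.

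Some of the members varied together in a pattern across the 6 lines. Cdkn2a and Cdkn2b, which are next to each other on chromosome 4, correlated at r = 0.95 (rho 0.71) over the 6 arrays, and Cdkn2c and Cdkn2d, on chromosomes 4 and 9, at r = 0.87 (rho 0.66). Between these couples the sign turned, from r = -0.43 (rho -0.14) for Cdkn2b and Cdkn2c to r = -0.89 (rho -0.77) for Cdkn2a and Cdkn2d. Cdkn1a and Cdkn1c correlated at r = 0.89 (rho 0.94). These are descriptions over 6 arrays that share pairs and normalization. Among stable lines that of pair 9938 had the lowest Cdkn2a, Cdkn2b and Cdkn1c and the highest Cdkn1b, Cdkn2c and Cdkn2d, so 1 line shaped much of this pattern. Without that line the unstable minus stable difference was 0.15 for Cdkn2a, 0.21 for Cdkn1c and -0.29 for Cdkn2d.

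Proliferation genes were lower in unstable lines: 18 of 18 tested members were lower in all 3 pairs (19.3% of all genes were), with a median of -0.57, and 0 passed the limma test. The median was -0.33 without the CDC20AAA/AAA line and -0.37 without the stable line of pair 9938. The mean of the 18 genes was 9.73, 10.16 and 9.64 in the stable and 9.50, 9.54 and 8.95 in the unstable lines. Over the 6 lines Cdkn2d followed this mean at r = 0.99 (rho 0.94). Without the 2 lines farthest from the median, the stable line of pair 9938 and the CDC20AAA/AAA line, r was 0.88 over 4 lines. Those 4 lines spanned only 6.82 to 6.91 in Cdkn2d, beside 6.20 to 7.58 over all 6. Most of its range thus came from the 2 lines left out. For Cdkn2c r was 0.87 (rho 0.60) over 6 lines and -0.15 without those lines, so that relation rests on them. Cdkn2a gave r = -0.86 (rho -0.83) over 6 and -0.58 over 4 lines, Cdkn1c -0.83 (rho -0.83) and -0.33, Cdkn1a -0.70 (rho -0.77) and -0.70, and Cdkn2b -0.71 (rho -0.49) and 0.16. Cdkn1b gave 0.02 (rho 0.14) over 6 and -0.69 over 4 lines.

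**Figure D3:**
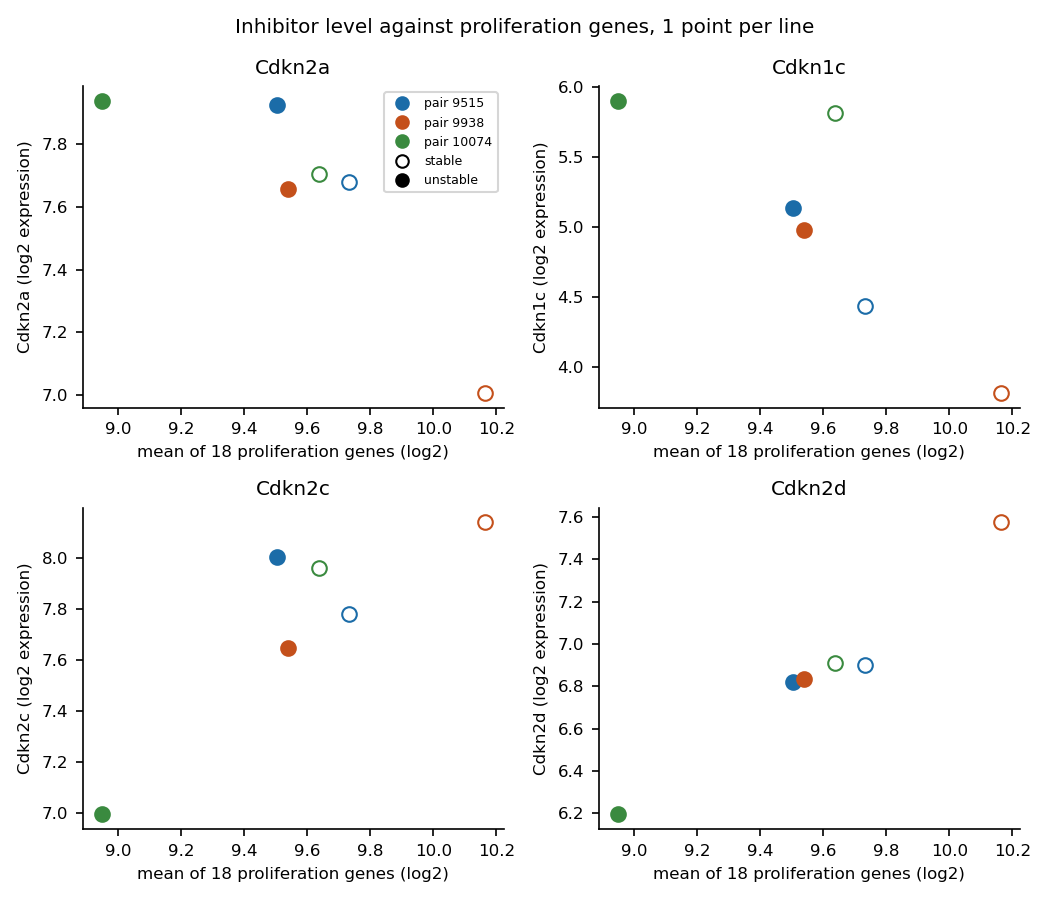
Log2 expression of Cdkn2a, Cdkn1c, Cdkn2c and Cdkn2d against the mean log2 level of 18 proliferation genes, with 1 point per line, open for stable and filled for unstable lines. The stable line of pair 9938 and the CDC20AAA/AAA line lie at opposite ends of each panel. Among the other 4 lines Cdkn2d slopes upward within a narrow span of 6.82 to 6.91.

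The targets of the inhibitors were tested as G1 cyclins and their kinases. Of 8 tested 0 passed, 5 were lower and 0 higher in all 3 pairs, beside 19.3% and 16.9% of all genes, with a median of -0.17. Leaving out the BubR1+/+ line of pair 9515 gave a median of -0.32, and leaving out the CDC20+/+ line gave -0.11. With no filter, which adds the dim Cdk6, it was also -0.11. Ccne1 and Ccne2, the cyclin E genes whose products activate CDK2, differed by -0.62 (SE 0.15) and -0.57 (SE 0.17). In both the groups did not overlap, as in 6.41% of all genes in that direction. Ccna2, cyclin A of S phase, was at -0.52 (SE 0.27) and Ccnd1, the main D-type cyclin of fibroblasts, at -0.23 (SE 0.14). The other members were nearer 0 and were added after their values were seen: Cdk4 was at -0.09 (SE 0.13), Cdk2 at -0.11 (SE 0.26), Ccnd2 at 0.04 (SE 0.10) and Ccnd3 at 0.02 (SE 0.08). Of 8 tested Rb and E2F genes 0 passed, 4 were lower and 2 higher in all 3 pairs, beside the same shares of all genes, with a median of -0.16 that was -0.06 without the stable line of pair 9938. Among the retinoblastoma relatives Rbl2, the p130 gene of resting cells, was at 0.38 (SE 0.13), with pair differences of 0.50, 0.49 and 0.16. Rbl1, the p107 gene of cycling cells, was at -0.61 (SE 0.26), with pair differences of -0.20, -1.05 and -0.59. Tfdp1, a partner of E2F, was at -0.23 (SE 0.12) and E2f1 at -0.21 (SE 0.12). The groups did not overlap for 1 of the 8 that was higher, Rbl2, and 2 that were lower, Rbl1 and Tfdp1. Of all genes 3.54% and 6.41% did so.

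Genes that regulate the inhibitors had medians near 0. Of 16 tested regulators of the Ink4 and Arf locus, chiefly Polycomb genes, which silence it in young cells, 5 were higher and 4 lower in all 3 pairs, beside 16.9% and 19.3% of all genes, with a median of 0.01. Ezh2, the methyltransferase of that system, was at -0.45 (SE 0.17), with pair differences of -0.09, -0.60 and -0.65. Its groups did not overlap, as in 6.41% of all genes in that direction. Phc1 was at 0.15 (SE 0.11), Phc2 at -0.14 (SE 0.12) and Tbx3, a repressor of the locus, at 0.28 (SE 0.23). Of 9 genes of p27 turnover and FoxO factors 1 was higher and 2 lower in all 3 pairs, beside the same shares, with a median of -0.02. They include Foxo3, a factor that can drive Cdkn1b, at 0.20 (SE 0.14), Skp2, the ubiquitin ligase subunit that marks p27Kip1 for breakdown, at -0.24 (SE 0.19), Rnf123 at -0.07 (SE 0.10) and Foxo1 at -0.32 (SE 0.53). None of the 16 or the 9 passed the limma test.

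The p53 pathway, which acts on Cdkn1a, gave 8 of 19 tested genes higher and 1 lower in all 3 pairs, beside 16.9% and 19.3% of all genes, with a median of 0.08 and 0 past the test. The median was 0.18 without the stable line of pair 9515 and 0.15 without the unstable line of pair 9938. It was 0.06 without the stable line of pair 9938. Plk2, a p53-induced kinase, was at 0.25 (SE 0.10) and Trp53inp1 at 0.26 (SE 0.12). In both the groups did not overlap, as in 3.54% of all genes in that direction. For Plk2 the gap was narrow, with the highest stable line at 10.224 and the lowest unstable line at 10.23. Pmaip1, the gene of NOXA, was at 0.67 (SE 0.28) and Rrm2b, a ribonucleotide reductase subunit, at 0.26 (SE 0.15). Outside the rule for named genes, and chosen after their values were seen, Mdm2, a direct p53 target, had pair differences of -0.07, -0.23 and 0.21 and Ccng1, another, 0.01, 0.10 and 0.04. Trp53 itself had no probe set that named it alone.

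Other senescence markers pointed both ways, with 13 higher and 5 lower over the group means, beside 47.9% of all genes higher. Of 18 tested 8 were higher and 1 lower in all 3 pairs, beside 16.9% and 19.3% of all genes, with a median of 0.21 and 0 past the test. Leaving out the BubR1+/+ line of pair 9938 gave a median of 0.04, that of pair 9515 gave 0.06, the CDC20AAA/AAA line 0.08 and the CDC20+/+ line 0.34. The 4 members with the smallest p were secreted factors and differed by 1.68 (SE 0.56) for Mmp13, 1.34 (SE 0.48) for Ccl8, 2.20 (SE 0.81) for Mmp10 and 0.74 (SE 0.33) for Il6. Stable lines measured 4.367, 4.242 and 5.584 for Ccl8 and 4.141, 4.075 and 5.061 for Mmp10, near the log2 floor of 4, so sizes are approximate. The groups overlapped for Ccl8, Mmp10 and Il6, and Il6 was lower in the unstable line of pair 9938 (-0.19). Those of Mmp13 did not overlap, as in 3.54% of all genes in that direction. Other secreted factors, chosen after their values were seen, were split. The chemokine Cxcl1, the member lower in all 3 pairs, was at -0.46 (SE 0.28). Cxcl5 was at -0.24 (SE 0.80) and the protease inhibitor Timp1 at -0.14 (SE 0.14). Higher on average were Mmp12 at 0.87 (SE 1.19), Mmp3 at 0.56 (SE 0.55) and Igfbp5 at 0.38 (SE 0.35). So were Ccl2 at 0.28 (SE 0.25), Igfbp3 at 0.15 (SE 0.38) and Igfbp7 at 0.02 (SE 0.12). Mmp12 measured 3.704 in the stable line of pair 9515, under the log2 floor of 4. Also chosen after their values were seen, Glb1, the gene of senescence-associated beta-galactosidase, had pair differences of 0.21, 0.48 and 0.27, and Lmnb1, the lamin B1 gene known to be lost in senescence, 0.06, -0.48 and -0.67. Glb1 varied more between pairs than within them (9.16 to 10.56 in stable and 9.64 to 10.83 in unstable lines).

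**Figure D4:**
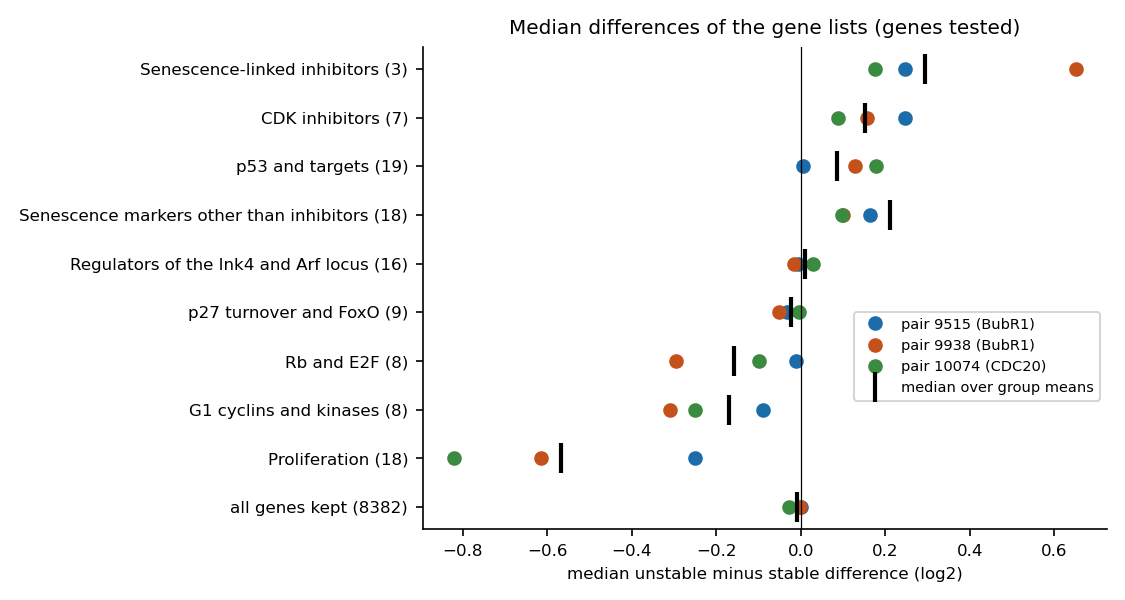
Median unstable minus stable log2 difference of each gene list within pairs 9515, 9938 and 10074 (points) and over the group means (bars), with the number of genes tested in brackets. The senescence-linked inhibitors lie between 0.18 and 0.65, proliferation genes between -0.82 and -0.25, and all genes near 0.

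The genes most like Cdkn2a and Cdkn2b over the 6 arrays were taken by Pearson correlation among 1846 genes with an SD of at least 0.3, a level Cdkn1a did not reach (SD 0.14). For Cdkn2a they were Ctsf, a cathepsin gene (r = 0.98, rho 0.94), Cox6b2 (r = 0.98, rho 1.00) and Hacl1 (r = 0.98, rho 0.94). For Cdkn2b they were the gelatinase gene Mmp2 (r = 1.00, rho 1.00), Cyp4v3 (r = 0.99, rho 0.94) and Mapre3 (r = 0.99, rho 0.83). Mmp2 had pair differences of 0.00, 0.65 and 0.20, close to the 0.04, 0.67 and 0.18 of Cdkn2b. With 6 arrays and 1846 candidates, high values arise for many genes, and these are given as a description.

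Genes flanking the inhibitors on the chromosome had median differences from -0.11 to 0.05, beside -0.01 for all genes. For each inhibitor the 5 tested genes on either side in chromosome order were taken. Of these 10 genes for Cdkn2a, 2 were higher in all 3 pairs, Cdkn2b and Elavl2, and 0 lower. Of all genes 16.9% were higher and 19.3% lower in all 3 pairs. The median of the 10 was -0.02. Mtap, which borders the Ink4 and Arf locus, had pair differences of -0.08, -0.29 and 0.06. The medians of the 10 flanking genes were 0.03 for Cdkn1c, 0.05 for Cdkn1b, 0.00 for Cdkn1a, -0.08 for Cdkn2c and -0.11 for Cdkn2d. Lower in all 3 pairs were 4 of the 10 genes flanking Cdkn2c and 4 of the 10 flanking Cdkn2d. Higher were 1 and 0, beside 19.3% lower and 16.9% higher over all genes. Over the 515 tested genes of chromosome 4, which holds Cdkn2a, Cdkn2b and Cdkn2c, the pair medians were -0.03, -0.02 and -0.09.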

How the data were processed

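Transcript levels of 6 fibroblast lines were measured on 1 Affymetrix array each. GCRMA 2.28.0 in R 2.15.3 is named in the submitters' processing notes; the deposited values are log2 values per probe set and were used as they are, so differences in overall brightness had been removed. Scanner files were not used here. Names came from the platform annotation, in which 20380 of 22626 probe sets had exactly 1 gene symbol. A gene was represented by its probe set with the highest mean. Lines were grouped by the labelled chromosome stability, and unstable minus stable was fitted by limma 3.58.1 (R 4.3.3; functions lmFit and eBayes; two-sided) over 8382 genes, Benjamini-Hochberg adjusted. The difference between effects came from 4 genotype groups. Exact permutation tests were not used, since 3 lines against 3 cannot go below 0.1.

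Same-numbered lines correlated at 0.812, 0.681 and 0.602 in their deviations from group means, so the numbers in the titles were taken to pair the lines. Named genes were the inhibitors, Bub1b and Cdc20, up to 4 members of each gene list by p, and for Cdkn2a and Cdkn2b the 3 most correlated genes (Cdkn1a varied too little for this part of the rule). Members and lists were chosen with earlier results of these data known. The fits were also run on simulated data with noise taken from the fit with the replicate block, and no result here rests on that. Alternatives were filters, probe set choice, scaling, priors, weights, the block and lines left out. The number of arrays limits the precision.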

Additional observations from a re-analysis of the deposited data

Results flagged for a closer look

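No inhibitor met a rule for a closer look. Among the marker genes, Dcn, Krt18 and Krt8 were higher in both BubR1H/H lines and lower in the CDC20AAA/AAA line than in their stable partners. The CDC20 difference minus the BubR1 difference was -1.16 for Dcn, -0.79 for Krt18 and -0.85 for Krt8 on the log2 scale. None passed the limma test of that difference, so the opposite directions are given as values only.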

How the results depend on the processing

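No inhibitor and no gene passed an adjusted p of 0.05 under any of 20 alternative settings of the unstable minus stable fit, with the replicate block or without it, or under either alternative of the difference between effects. Cdkn1c dropped out under the stricter filter. With 1 line left out, 1 of 42 inhibitor differences changed sign: Cdkn1b was -0.033 without the stable line of pair 9515, and single lines left out gave -0.033 to 0.29 for it. The corresponding ranges were 0.08 to 0.25 for Cdkn1a, 0.21 to 1.21 for Cdkn1c, 0.15 to 0.50 for Cdkn2a, 0.0035 to 0.50 for Cdkn2b, -0.64 to -0.13 for Cdkn2c and -0.63 to -0.29 for Cdkn2d. Leaving out the stable line of pair 9938 gave the lowest values for Cdkn1c, Cdkn2a and Cdkn2b. Of 220 list medians 22 moved beyond the spread of the pair medians, those of the senescence markers most often. The number of lines, 3 per group, and the low signal of Cdkn1c limit these values. With balanced pairs the replicate block cannot move a difference, such as 0.38 for Cdkn2a or -0.51 for Cdkn2d, and bears on its error alone.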
